A study of Mus musculus with 36 samples.

Results

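Cytosolic ribosomal protein genes encode the proteins that, together with ribosomal RNA, form the large (Rpl) and small (Rps) subunits of the ribosome. The genes described here were taken by name from the count files: protein-coding genes whose mouse symbol is Rpl or Rps followed by a number and at most one letter, a or x, and the genes Rpsa, Rplp0, Rplp1 and Rplp2. The rule gave 76 of the 55470 genes in the files, 46 of the large subunit (its stalk included) and 30 of the small subunit. It used no measured value and left out mitochondrial ribosomal protein genes and pseudogenes. Of the 76 genes, 72 passed the filter on low counts and were tested among 11341 genes in all. Those that did not pass were Rpl13a, with 110 counts over the 36 libraries, Rplp2 with 172, Rps10 with 38, and Rpl24, which had 0 counts in every library.

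The RNA came from the cortex of C57BL6JL mice and was bound to ribosomes carrying an HA-tagged Rpl22, which an anti-HA antibody pulled down (the RiboTag method). Cre recombinase driven by Camk2a, a gene of forebrain excitatory neurons, switches the tag on, so the tag marks the neurons that express Cre and not other cortical cells, and any RNA that sticks to the beads is counted too. Every mouse carried HA-Rpl22(f/+);Camk2a-Cre(+/-) by the genotype labels, so that 1 copy of Rpl22 can carry the tag (the extraction text gives f/f). WT mice were Shank3(+/+) littermates, and Shank3 mice were Shank3(ΔC/+), with 1 of the 2 copies of the gene for a postsynaptic scaffold protein mutated. Within each genotype mice were left naive in the home cage or forced to swim in water at 25 °C, for 5 min by the sample labels and 6 min by the treatment text, and killed 1 h or 4 h later. In cohort 1 there were 3 WT naive, 3 Shank3 naive, 6 WT 1 h and 5 Shank3 1 h libraries. In cohort 2 there were 4 WT naive, 4 Shank3 naive, 5 WT 4 h and 6 Shank3 4 h libraries. Each swim group was therefore compared with the naive libraries of its own cohort. The labels do not tie libraries to animals, and p-values here reflect how libraries of a group vary, which may be technical.

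A ribosome contains one copy of most of these proteins, and their mRNAs are among the most abundant in growing cells. Most of these mRNAs begin with a cytosine and a run of pyrimidines, the terminal oligopyrimidine (TOP) tract, through which mTORC1 and the RNA-binding protein Larp1 control how many ribosomes load on them. In neurons the same mRNAs are also carried into axons and dendrites. RiboTag reads ribosome-bound mRNA, so a change in the level of an mRNA and a change in its loading cannot be told apart here. In material from many cells, fewer cells of a type and less RNA per cell cannot be told apart either.

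The start of the transcript is shown for the 5 genes that fell at 4 h in both genotypes and for 4 of those that rose in both, since the TOP tract lies there. Each window holds 15 bases on either side of the RefSeq transcript start (GRCm38.p6), read in the direction of the gene, with CTTTC or CTTTT in capitals where present. The windows lie at chr4:136053379-136053408 on the minus strand for Rpl11, chr14:18270972-18271001 on the minus strand for Rpl15, chr7:45718056-45718085 on the plus strand for Rpl18, chr9:44407699-44407728 on the plus strand for Rps25 and chr17:33824548-33824577 on the minus strand for Rps28. Those of the rising genes lie at chr7:4792950-4792979 on the plus strand for Rpl28, chr17:24720048-24720077 on the plus strand for Rps2, chr10:128549154-128549183 on the minus strand for Rpl41 and chr4:86857353-86857382 on the minus strand for Rps6.
Rpl11: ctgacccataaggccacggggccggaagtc
Rpl15: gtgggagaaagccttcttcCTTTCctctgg
Rpl18: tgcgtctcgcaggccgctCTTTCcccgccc
Rps25: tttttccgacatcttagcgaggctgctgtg
Rps28: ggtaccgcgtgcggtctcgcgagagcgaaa
Rpl28: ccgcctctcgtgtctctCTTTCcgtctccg
Rps2: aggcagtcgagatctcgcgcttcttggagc
Rpl41: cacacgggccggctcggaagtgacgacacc
Rps6: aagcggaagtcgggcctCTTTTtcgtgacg
A match to either word (the words share their first 4 letters and were searched on both strands) was present on the gene's strand in 2 of the 5 falling genes and in 2 of the 4 rising ones. The 4 are examples from the 35 genes that rose in both genotypes. Most of the other rising genes with a RefSeq entry held no word. The 2 shares therefore do not compare falling with rising genes. RefSeq had an entry for 56 of the 76 genes, and 20 of their 66 transcript starts (30.3%) held a word on the gene's strand, against 6.96% of 32851 starts of all genes. On the opposite strand the shares were 4.55% and 6.34%. A match describes letters in a window and not a used site.

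Library totals ran from 883870 to 3520018 counts, with a mean of 1579816 ± 552645 (SD, n = 36), so genes at a few CPM rest on few counts. CPM here means counts per 1000000 of the library size after scaling by edgeR's trimmed mean of M values (TMM), and log2 fold changes are on that scale. The row of the mutated gene, Shank3, held 5.44 to 19.7 CPM in 18 WT libraries and 7.18 to 34.6 CPM in 18 Shank3 libraries. These ranges overlap, and a count over the whole gene does not check an allele that changes 1 part of it. All 12 pyramidal neuron markers were past the filter. Of 10 endothelial and mural markers 1 was past it and Cldn5 was at 0 in all libraries, and the list summed to 7.59 to 49.2 CPM. Some other lists summed higher. In WT naive cohort 1 the sums were 34.5 to 51.8 CPM for astrocyte and 86.4 to 128.7 CPM for oligodendrocyte markers. Microglia markers summed to 1008 to 1092 CPM there, against 1390 to 1668 CPM for pyramidal neuron markers, although P2ry12, C1qa and C1qb were among the microglia markers at 0. Ribosomal RNA took 38.6% of the counts of Shank3 naive replicate 7, 13.5% of Shank3 naive replicate 6 and 10.5% of WT 1 h replicate 5.

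A limit on every level below is how the rows of opposite strands divide the counts. Over 1813 pairs of a coding gene and an antisense gene on the other strand, the coding rows held 10.8% ± 0.185 of the pair's counts in the WT naive libraries of cohort 1 (SD, n = 3). This share, called the pair share below, was 13.2% ± 1.4 in WT naive cohort 2 (n = 4), 14.4% ± 2.09 in WT 1 h (n = 6), 23.2% ± 5.32 in WT 4 h (n = 5) and 25.5% ± 7.23 in Shank3 4 h (n = 6). The library kit keeps the strand, and the strand setting used in counting is not given in the sources used here. Under the opposite setting a row would hold the reads of whatever lies on its other strand. For a gene with a neighbour there, the 2 sources of a count cannot be told apart. A gene with no neighbour would then hold only reads from the other strand of its own position, so its level shares this limit. Which setting was used was not tested. An exon of 18 of the 76 genes lies opposite an exon of another gene, 55 have no gene on the other strand, and the other 3 have one without exon overlap.

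The ribosomal protein genes took a small part of each library. Their summed counts were 0.305% ± 0.00740 of all counts in WT naive cohort 1 (SD, n = 3) and 0.289% ± 0.0170 in Shank3 naive cohort 1 (n = 3). They were 0.337% ± 0.0416 in WT 1 h (n = 6) and 0.318% ± 0.0228 in Shank3 1 h (n = 5). In cohort 2 the naive groups held 0.335% ± 0.0370 in WT and 0.273% ± 0.0679 in Shank3 (n = 4 each). The 4 h groups held 0.468% ± 0.0911 in WT (n = 5) and 0.506% ± 0.101 in Shank3 (n = 6). Every 4 h library except WT 4 h replicate 2, at 0.373%, was above the highest naive library of cohort 2, at 0.387%. The libraries with the lowest pair shares at 4 h, WT replicate 2 (17.0%), Shank3 replicate 2 (17.5%) and Shank3 replicate 6 (18.2%), were also the lowest in this sum, at 0.373%, 0.39% and 0.395%.

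**Figure D1:**
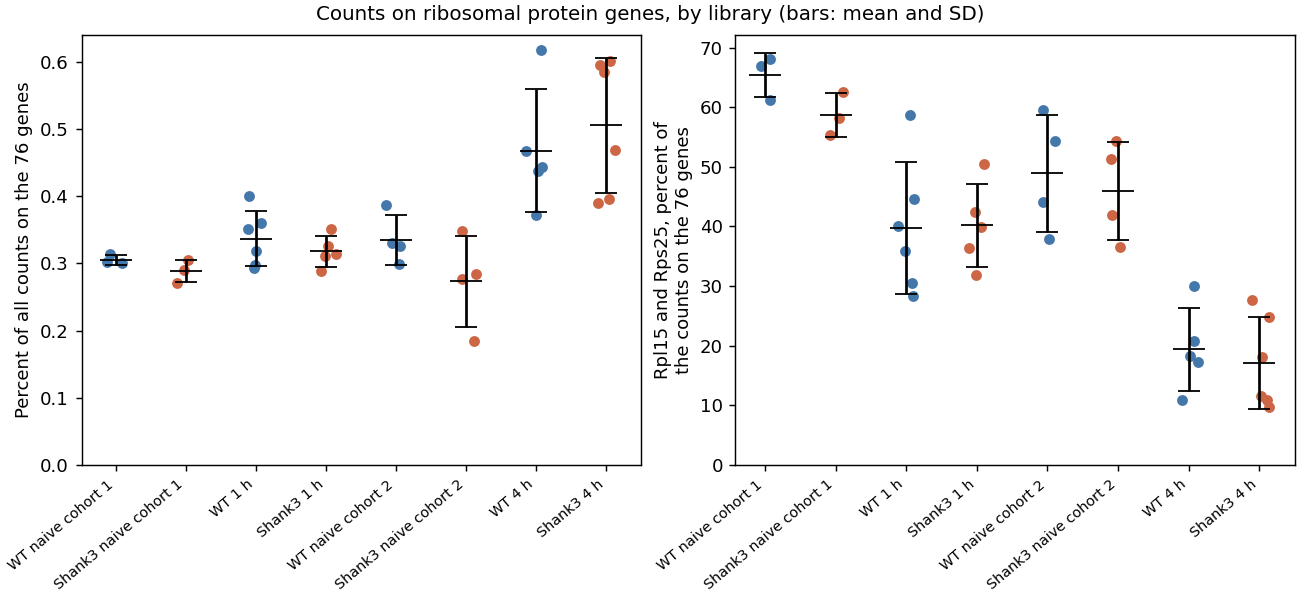
Left, percent of each library's counts on the 76 ribosomal protein genes; right, the part of those counts on Rpl15 and Rps25. Points are libraries, and bars are the group mean and SD. The sum is highest at 4 h, while the part on Rpl15 and Rps25 falls from a mean of 48.9% in WT naive cohort 2 to 19.4% in WT 4 h.

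A pair of rows dominated the sum. Rpl15, a core protein of the large subunit, held 18.9% of the counts on the 76 genes over all libraries, and Rps25, a small subunit protein used in initiation at some viral internal entry sites, held 11%. Next was Rpl11 with 5.24%. Per length, the highest mean levels over all libraries were 379 CPM per kb for Rpl15, 192 for Rps25 and 79.5 for Rpl11. Rpl15 and Rps25 together made up 65.4% of these counts in WT naive cohort 1, 58.7% in Shank3 naive cohort 1, 48.9% and 46.0% in the naive groups of cohort 2, 39.7% and 40.2% at 1 h, and 19.4% and 17.1% at 4 h (WT, then Shank3). The median gene stood at 6.27 CPM per kb in WT naive cohort 1, the 72.3rd percentile of 9484 tested coding genes by level. In naive cohort 2 it stood at 7.77 CPM per kb in WT (74.5th percentile) and 8.09 CPM per kb in Shank3 (75.5th percentile). At 4 h it stood at 14.4 CPM per kb in WT (83.7th percentile) and 17.3 CPM per kb in Shank3 (86.0th percentile).

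Rows named as ribosomal protein pseudogenes, 300 in all, held 2973 counts, which is 1.33% of those on the 76 genes. Of these, 1092 lay on pseudogenes of Rps23, against 2707 on Rps23 itself, so the level of Rps23 is uncertain by how reads were split between copies.

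At 4 h after the swim most of the tested genes were higher than in naive mice of the same cohort. In WT mice 38 of 72 rose and 8 fell at an adjusted p under 0.05 (edgeR quasi-likelihood test, Benjamini-Hochberg over 11341 genes), where 29% of all tested genes rose and 26.9% fell. In Shank3 mice 47 of 72 rose and 6 fell, where 32.7% of all genes rose and 29.4% fell. The median log2 fold change of the 72 genes was 1.04 in WT and 1.19 in Shank3, against 0.23 and 0.22 over all tested genes, and single genes ran from -1.74 to 3.11 in WT and from -1.64 to 3.63 in Shank3. The large subunit and the small subunit gave like counts, with 22 of 43 and 16 of 29 genes risen in WT, and 28 of 43 and 19 of 29 in Shank3. Every swim library lay above every naive library for 22 of the 72 genes in WT, where the share over all genes was 21.3%, and for 30 in Shank3, where it was 20.5%.

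The pair share did not overlap between the groups compared, with 11.8% to 15.0% in the naive libraries of cohort 2 and 17.0% to 33.1% at 4 h. A fit with the pair share as a covariate therefore takes up much of the contrast by its construction, and time after swim and pair share cannot be told apart. With the pair share as a covariate, 0 of 72 genes rose and 2 fell in WT, and 0 rose or fell in Shank3, with medians of 0.04 and 0.08. With library totals in place of TMM, 62 rose and 3 fell in WT and 66 rose and 3 fell in Shank3, a scaling under which the median of all genes shifted to 0.98 and 1.17.

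**Figure D2:**
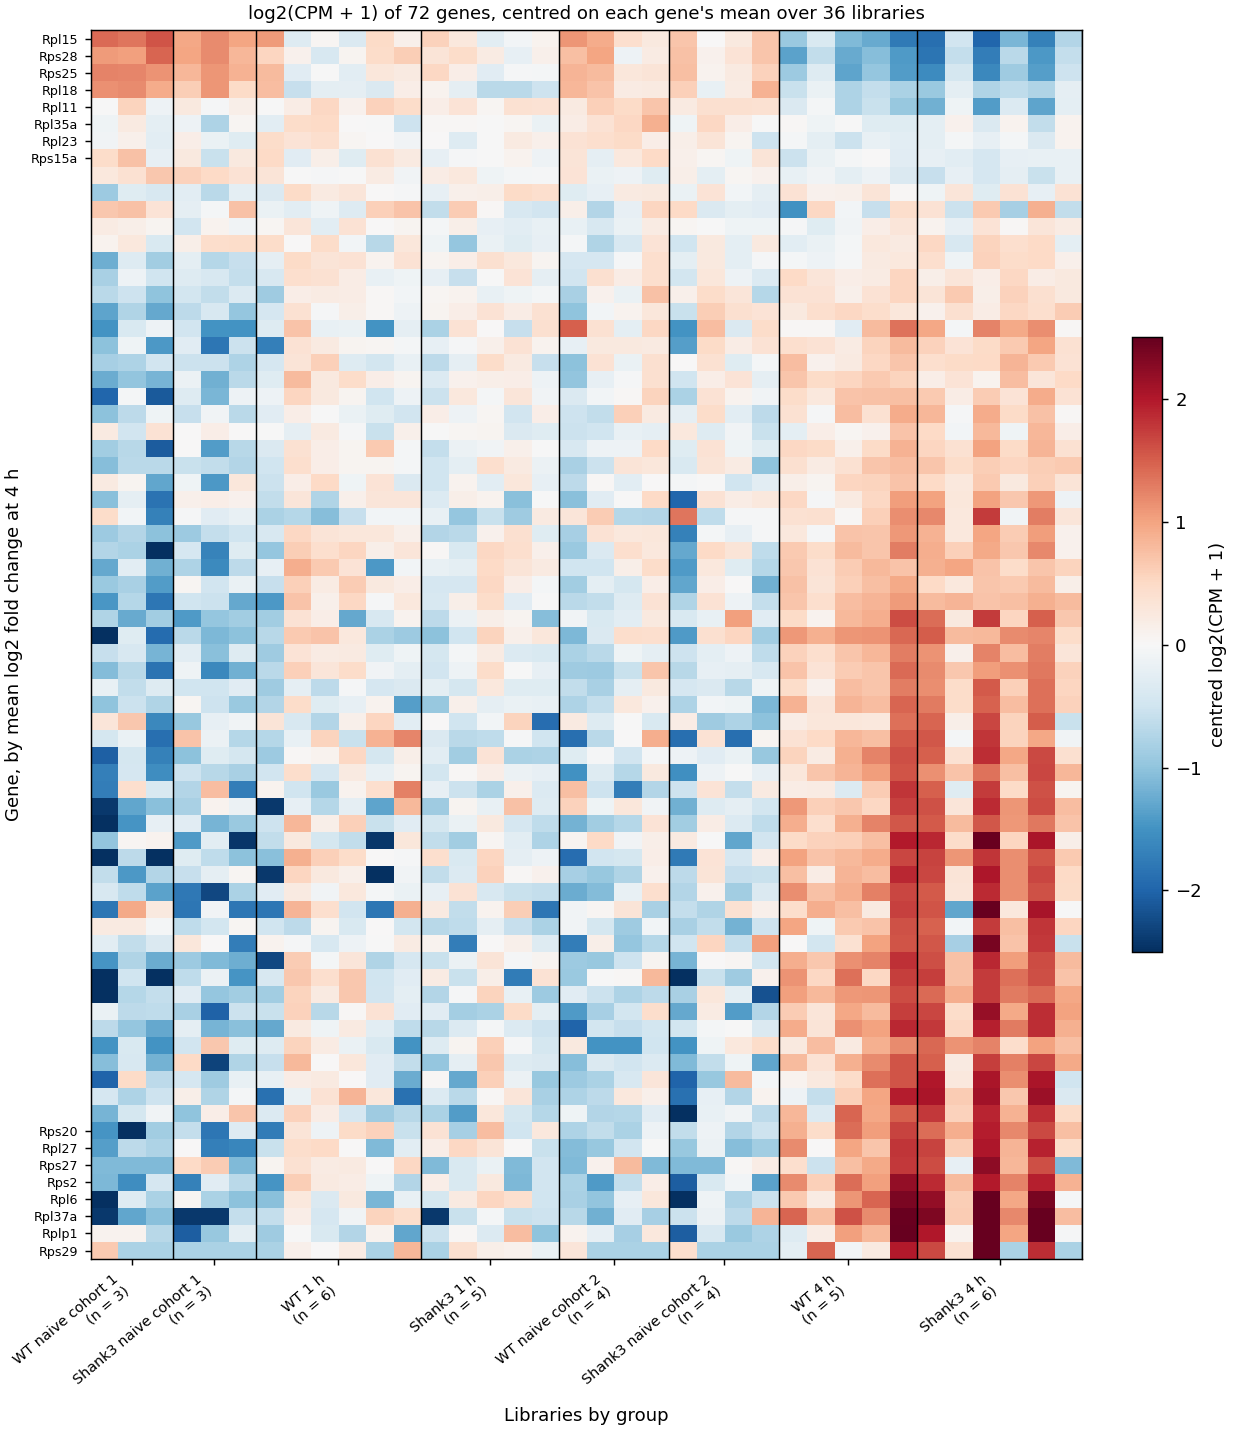
Level of 72 ribosomal protein genes (rows, from the most negative to the most positive mean response at 4 h) in 36 libraries (columns, by group; the 8 rows at either end are named), as log2(CPM + 1) less the gene's mean, red for higher and blue for lower. The upper rows, with Rpl15, Rps28 and Rps25 first, are high in naive libraries, and most other rows are high at 4 h.

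The tagged protein's gene, Rpl22, lies on the outer face of the large subunit and had no gene on the other strand. Its CPM was 3.46, 6.58, 8.16 and 12.0 in WT naive cohort 2 and 12.2, 8.0, 9.78, 12.2 and 18 in WT 4 h, and the groups overlapped. In Shank3 mice it was 1.33, 10.8, 9.5 and 10.0 in naive cohort 2 and 7.41 to 18.6, with a median of 15.6 at 4 h, again with overlap. The log2 fold change was 0.67 (SE 0.36, adjusted p = 0.104) in WT and 0.79 (SE 0.34, adjusted p = 0.0413) in Shank3. The call in Shank3 was lost without Shank3 4 h replicate 1, 3 or 5, Shank3 naive replicate 4, 6 or 7, or WT 4 h replicate 4, with adjusted p from 0.0505 to 0.197. Counts do not separate tagged from untagged Rpl22. Its paralog Rpl22l1, outside the naming rule, had 262 counts in all and 1 gene on the other strand, and it rose by 2.29 in WT (SE 0.66, adjusted p = 0.00386) and by 1.16 in Shank3 (SE 0.50, adjusted p = 0.0413).

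The stalk of the large subunit, which recruits elongation factors, is built from Rplp0 as the base and Rplp1 and Rplp2 as the arms. Rplp0 was at 4.62, 6.58, 4.08 and 4.98 CPM in WT naive cohort 2 and 6.55, 7.06, 7.17, 8.01 and 20.4 CPM in WT 4 h, with 1 naive library, replicate 5, inside the range of the 4 h libraries. In Shank3 mice it was at 5.30, 4.33, 1.19 and 2.86 CPM in naive cohort 2 and 4.94 to 29.1, with a median of 12.8 CPM at 4 h. Its log2 fold change was 1.07 (SE 0.52, adjusted p = 0.0767) in WT, which did not pass, and 2.07 (SE 0.53, adjusted p = 0.00116) in Shank3, where it rose. Rplp1 had few counts: 3.46, 2.63, 1.36 and 3.99 CPM in WT naive cohort 2 against 2.34, 3.76, 7.50, 6.27 and 23.9 in WT 4 h, and 0, 2.16, 1.19 and 1.43 in Shank3 naive cohort 2 against 3.09 to 29.3, with a median of 11.5 in Shank3 4 h. The Shank3 groups did not overlap and the WT groups did. Its log2 fold change was 1.80 (SE 0.71, adjusted p = 0.0305) in WT and 3.34 (SE 0.78, adjusted p = 0.000412) in Shank3. The WT call rested on single libraries, with an adjusted p of 0.29 without WT 4 h replicate 5, and of 0.0535, 0.0584 and 0.115 without WT naive replicate 4, 5 or 6.

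On the small subunit, Rpsa, which also serves as a laminin receptor at the cell surface, was at 5.77, 5.27, 6.12 and 12.0 CPM in WT naive cohort 2 and 19.2, 12.7, 20.9, 19.5 and 43.2 CPM in WT 4 h. It was at 6.62, 14.1, 7.12 and 7.16 CPM in Shank3 naive cohort 2 and 14.1 to 47.7, with a median of 31.7 CPM in Shank3 4 h. All WT 4 h libraries lay above all WT naive ones, while the highest Shank3 naive library lay at the level of the lowest Shank3 4 h library. Rpsa rose by 1.69 (SE 0.45, adjusted p = 0.00191) in WT and 1.66 (SE 0.41, adjusted p = 0.000835) in Shank3.

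Rps6, the substrate of the S6 kinases downstream of mTORC1, was at 25.4, 39.5, 34.7 and 52.8 CPM in WT naive cohort 2 and 78.6, 59.3, 71.4, 80.5 and 92.1 CPM in WT 4 h, without overlap. In Shank3 it was at 18.5, 53.0, 47.5 and 20.0 CPM in naive cohort 2 and 52.5 to 83.0, with a median of 71.1 CPM at 4 h, with the ranges just overlapping. It rose by 1.01 (SE 0.25, adjusted p = 0.00124) in WT and by 0.92 (SE 0.25, adjusted p = 0.00185) in Shank3.

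Of the other small subunit genes chosen by role, Rps4x, the X-linked form of a protein near the mRNA entry side, rose in both genotypes, by 1.08 (SE 0.29, adjusted p = 0.00223) and 1.4 (SE 0.29, adjusted p = 0.000108). Rps14, whose loss in one copy causes a human anaemia, was at 72.3 ± 26.9 CPM in WT naive cohort 2 (SD, n = 4) and 119.5 ± 7.38 CPM in WT 4 h (n = 5). The WT log2 fold change of Rps14 was 0.72 (SE 0.22, adjusted p = 0.00672), with an adjusted p of 0.0571 without WT naive replicate 4, and the Shank3 value was 0.38 (SE 0.21, adjusted p = 0.117). Rps27a, made as a fusion with ubiquitin, passed in neither, at 0.17 (SE 0.20, adjusted p = 0.462) and 0.37 (SE 0.20, adjusted p = 0.0946). On the large subunit Rpl10, which sits beside the peptidyl transferase centre, rose by 0.86 (SE 0.33, adjusted p = 0.0244) in WT and 0.83 (SE 0.32, adjusted p = 0.0242) in Shank3. Both Rpl10 calls rested on single libraries: adjusted p was 0.0883, 0.113 and 0.0695 without WT 4 h replicate 5 or WT naive replicate 4 or 5, and 0.0598, 0.121 and 0.0838 without Shank3 4 h replicate 5 or Shank3 naive replicate 4 or 7.

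The genes with the smallest p among those that rose at 4 h were Rpl23a, Rpl7, Rpl17 and Rps2 in WT, and Rpl28, Rps2, Rpl41 and Rpl23a in Shank3. Rpl23a, a protein at the mouth of the exit tunnel, was at 3.46, 11.9, 10.9 and 12.0 CPM in WT naive cohort 2 and 32.7, 21.2, 38.1, 34.8 and 64.6 CPM in WT 4 h. In Shank3 it was at 11.9, 16.2, 16.6 and 12.9 CPM in naive cohort 2 and 24.3 to 67.7, with a median of 50.9 CPM at 4 h. Neither genotype's groups overlapped, and the log2 fold change was 2.00 (SE 0.34, adjusted p = 1.71e-05) in WT and 1.72 (SE 0.31, adjusted p = 2.21e-05) in Shank3. Rps2, which lines the mRNA entry channel, was at 4.62, 2.63, 5.44 and 9.97 CPM in WT naive cohort 2 and 21, 13.6, 24.5, 18.8 and 43.7 CPM in WT 4 h. It was at 1.33, 6.49, 8.31 and 2.86 CPM in Shank3 naive cohort 2 and 15.8 to 37.3, with a median of 28.4 CPM in Shank3 4 h, and no groups overlapped. Rps2 rose by 2.09 (SE 0.42, adjusted p = 0.000117) and 2.41 (SE 0.42, adjusted p = 1.45e-05).

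Rpl28, a protein of the large subunit surface, went from 13.9, 10.5, 7.48 and 14.0 CPM in WT naive cohort 2 to 29.9, 13.6, 23.8, 24.7 and 46.6 CPM in WT 4 h, with 2 naive libraries and 1 library at 4 h inside the other group's range. In Shank3 it went from 7.95, 9.19, 5.94 and 10.0 CPM to 14.1 to 53.2, with a median of 33.9 CPM, without overlap. The log2 fold changes were 1.33 (SE 0.34, adjusted p = 0.00134) and 2.07 (SE 0.35, adjusted p = 8.66e-06). Rpl41, a very short peptide at the bridge between the subunits, went from 15.9, 16.8, 13.1 and 20.0 CPM in Shank3 naive cohort 2 to 30.3 to 64.2, with a median of 41.5 CPM in Shank3 4 h, and its log2 fold changes were 1.04 (SE 0.26, adjusted p = 0.00103) in WT and 1.45 (SE 0.26, adjusted p = 1.63e-05) in Shank3. Rpl7 rose by 1.80 (SE 0.35, adjusted p = 6.28e-05) and 1.69 (SE 0.33, adjusted p = 5.15e-05), and Rpl17, which lies by the exit tunnel, rose by 1.89 (SE 0.37, adjusted p = 8.53e-05) and 1.75 (SE 0.35, adjusted p = 5.87e-05). After Rps29 and Rplp1, the largest mean responses over both genotypes were those of Rpl37a, at 2.68 (SE 0.59, adjusted p = 0.000277) and 2.28 (SE 0.51, adjusted p = 0.000276), and Rpl6, at 1.83 (SE 0.53, adjusted p = 0.00422) and 2.67 (SE 0.55, adjusted p = 9.43e-05). The calls given here for Rpsa, Rps6, Rps4x, Rpl23a, Rps2, Rpl28, Rpl41, Rpl7, Rpl17, Rpl37a and Rpl6 held when any 1 library was left out. With the pair share as a covariate none of these genes passed, and the WT value of Rpl6 and the Shank3 value of Rpsa turned negative, at -0.37 and -0.21. The same covariate turned Rpl22 (-0.30) and Rplp0 (-0.19) negative in Shank3, Rplp1 (-1.02) in WT, and Rpl10 in WT (-0.02) and Shank3 (-0.21).

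Rps29, a short zinc-binding protein beside the head of the small subunit, had the largest fitted mean response but only 144 counts in all. It had 1 count in the 4 WT naive libraries of cohort 2 and 49 in the 5 WT 4 h libraries, a ratio of 12.4 per scaled library size (exact 95% counting interval 2.12 to 498). Of the 49 counts 35 lay in WT 4 h replicate 5, without which the ratio was 5.61, and Rps29 did not pass in WT (adjusted p = 0.0528). In Shank3 it had 1 count in the naive libraries and 78 at 4 h, a ratio of 17.3 (3.01 to 692), and passed (adjusted p = 0.0157). The Shank3 counts at 4 h were 23, 3, 35, 0, 17 and 0, the ratio was 11.9 without replicate 3, and the call was lost without Shank3 naive replicate 5 (adjusted p = 0.082). The intervals cover counting error only.

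A smaller set moved the other way. Rpl11, Rpl15, Rpl18, Rps25 and Rps28 fell at 4 h in both genotypes (62.5% of the 8 that fell in WT and 83.3% of the 6 in Shank3). For all 5, every 4 h library lay below every naive library of its own genotype in cohort 2. Such separation held for 7 of the 72 genes in WT, against 2192 of all 11341, and for 6 in Shank3, against 2250. The 5 were named because they fell in these libraries, so the separation is no separate support. The 2 genotypes were compared with different naive libraries. Rpl15 was at 1644, 1457, 1018 and 901 CPM in WT naive cohort 2 and 399.8, 585, 358, 319 and 223 CPM in WT 4 h. In Shank3 it was at 1232, 769, 901 and 1235 CPM in naive cohort 2 and 194 to 549, with a median of 290.2 CPM at 4 h. Its log2 fold change was -1.74 (SE 0.29, adjusted p = 1.53e-05) in WT and -1.64 (SE 0.28, adjusted p = 8.6e-06) in Shank3. Rps25 was at 803, 771, 546 and 556 CPM in WT naive cohort 2 and 237, 356, 179, 227 and 169.6 CPM in WT 4 h. It was at 752, 475, 521 and 667 CPM in Shank3 naive cohort 2 and 146 to 331, with a median of 206 CPM in Shank3 4 h, and the log2 fold changes were -1.52 (SE 0.25, adjusted p = 1.2e-05) and -1.42 (SE 0.24, adjusted p = 7.81e-06).

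Rps28, a small protein by the mRNA exit channel, was at 78.5, 93.5, 42.2 and 53.8 CPM in WT naive cohort 2 and 17.8, 30.1, 18.9, 21.6 and 16.7 CPM in WT 4 h. It fell in both genotypes, with log2 fold changes of -1.66 (SE 0.26, adjusted p = 6.6e-06) and -1.61 (SE 0.25, adjusted p = 3.39e-06). Rpl18 went from 147, 136, 95.2 and 95.7 CPM in WT naive cohort 2 to 55.2, 72.9, 47.9, 54.0 and 47.1 CPM in WT 4 h, and its log2 fold changes were -1.09 (SE 0.23, adjusted p = 0.000225) and -0.99 (SE 0.23, adjusted p = 0.000315). Rpl11, which with Rpl5 and the smallest ribosomal RNA can bind Mdm2 when ribosome assembly fails, was the one of the 5 with no gene on the other strand. It was at 237, 307, 283 and 329 CPM in WT naive cohort 2 and 158, 194, 118, 137 and 104 CPM in WT 4 h. In Shank3 it was at 235, 266, 265 and 262 CPM and 76 to 188, with a median of 123 CPM, and the log2 fold changes were -1.03 (SE 0.23, adjusted p = 0.000305) and -1.03 (SE 0.22, adjusted p = 0.000134). These 10 calls held when any 1 library was left out. With library totals in place of TMM, Rpl15, Rps25 and Rps28 still fell, Rpl11 did not pass (-0.31 in WT, -0.13 in Shank3), and Rpl18 was at -0.32 in WT and 0.03 in Shank3. With the pair share as a covariate only the WT calls of Rpl15 (-0.42, adjusted p = 0.0244) and Rps25 (-0.46, adjusted p = 0.0159) remained.

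Rpl23, Rpl35a and Rps15a also fell in WT only by the call, and Rps18 in Shank3. Rpl23 was at 83.1, 85.6, 89.1 and 71.8 CPM in WT naive cohort 2 and 61.7, 54.1, 43.7, 56.1 and 53.2 CPM in WT 4 h (-0.62 (SE 0.17, adjusted p = 0.00253)), and its Shank3 value was -0.19 (SE 0.17, adjusted p = 0.315). With library totals in place of TMM the WT value of Rpl23 was 0.15, those of Rpl35a and Rps15a 0.06 and 0.31, and the Shank3 value of Rps18 0.60, so their direction rests on the scaling. The Rps18 call was lost without Shank3 4 h replicate 1, 3 or 5 or Shank3 naive replicate 4, 6 or 7 (adjusted p from 0.0502 to 0.101) and with DESeq2 (0.0804). The Rps15a call (adjusted p = 0.0476) was lost without any 1 of 15 libraries, with adjusted p up to 0.157 without WT naive replicate 7, and with DESeq2 (0.0969). Without the low-count filter none of the 4 calls remained (adjusted p from 0.0821 to 0.408). A call in 1 genotype does not show that the genotypes differ, and the test of that difference is given below.

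**Figure D3:**
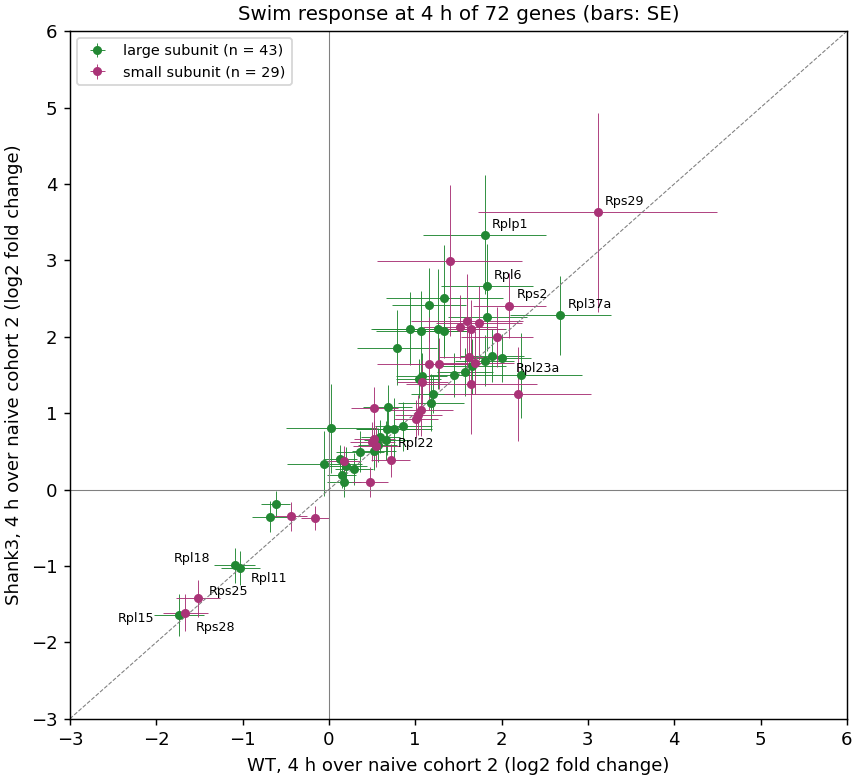
Log2 fold change at 4 h against naive cohort 2 in WT (horizontal) and Shank3 (vertical) mice for 72 ribosomal protein genes, with SE bars, green for the large and purple for the small subunit; the dashed line marks equal values. Most genes lie above 0 on both axes, and Rpl11, Rpl15, Rpl18, Rps25 and Rps28 lie below 0 on both.

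How far a gene moved at 4 h went with its level. Across the 72 genes the log2 level per kb in naive cohort 1, libraries that did not enter the 4 h contrasts, and the log2 fold change at 4 h had a Pearson r of -0.75 and a Spearman rho of -0.66 in WT, and -0.76 and -0.71 in Shank3. The points are genes measured in the same libraries, so no p is given, and fold changes of genes with few counts scatter more. The 10 genes highest in naive cohort 1 (Rpl15, Rps25, Rpl11, Rps18, Rps28, Rpl18, Rpl23, Rpl7a, Rpl36 and Rpl4) had median log2 fold changes of -0.82 (WT) and -0.68 (Shank3). For the 10 lowest (Rps29, Rps19, Rpl39, Rpl34, Rps20, Rpl37a, Rps27, Rpl13, Rps12 and Rpl10a) the medians were 1.78 and 2.16. The low-count filter drew on all groups, so a gene near 0 in naive libraries could enter only through libraries where it was higher. Rps29, for example, had 0 or 1 count in each naive library and up to 35 at 4 h. The filter therefore sets part of the correlation and of the medians of the lowest genes, and how large a part was not tested. Rpl4 stood apart within the high group, going from 45, 48.7, 72.8 and 66.8 CPM in WT naive cohort 2 to 116, 105, 127, 139 and 190.1 CPM in WT 4 h, a rise of 1.21 (SE 0.25, adjusted p = 0.000163).

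**Figure D4:**
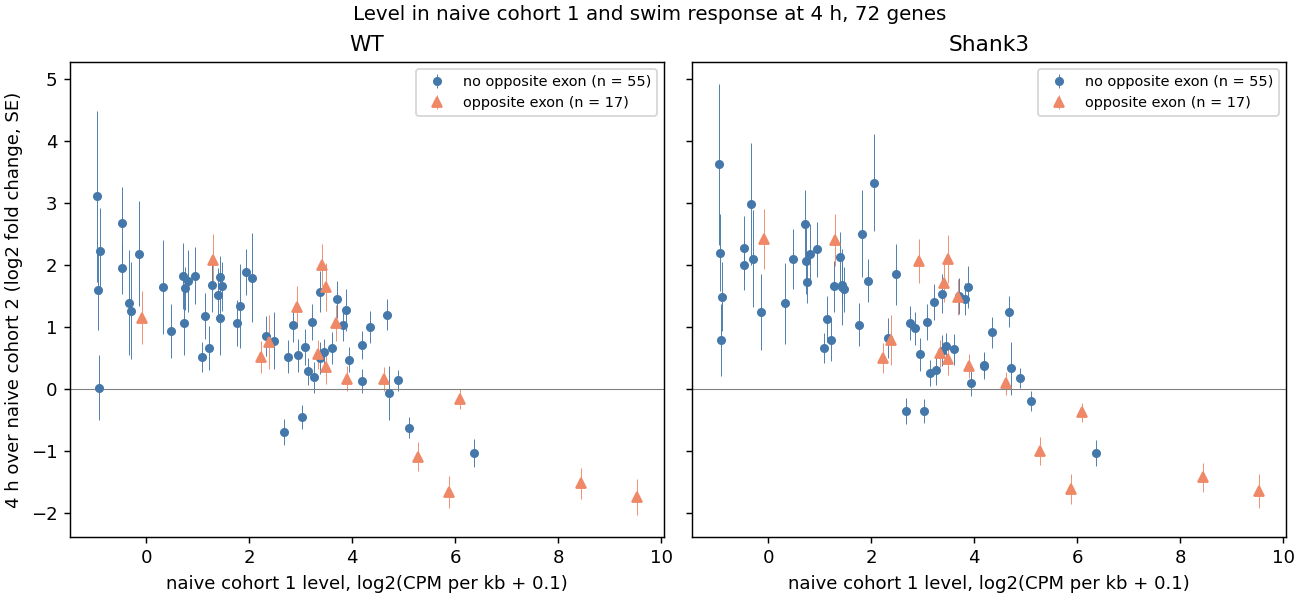
Log2 level per kb in naive cohort 1 (horizontal, with 0.1 added) against the log2 fold change at 4 h with its SE (vertical) for 72 ribosomal protein genes in WT (left) and Shank3 (right). Triangles mark the 17 tested genes with an exon opposite another gene. Rpl15, Rps25 and Rpl11, the 3 highest, lie below 0, and of the 10 lowest all but Rpl39 lie above 1 in WT. The low-count filter drew on all groups, so genes low in naive libraries could enter through their 4 h counts.

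The 4 h counts are given separately for genes with and without a neighbour on the other strand, and the difference between these kinds was not tested. Among the 52 tested genes with no gene on the other strand, 30 rose and 3 fell in WT and 40 rose and 1 fell in Shank3. Over all 4822 tested genes of that kind, 38.4% rose and 11.6% fell in WT, and 44.8% rose and 11.7% fell in Shank3. Among the 17 tested genes with an exon opposite another gene, 7 rose and 4 fell in WT and 7 rose and 5 fell in Shank3. Over all 5241 tested genes of that kind, 18.3% rose and 45.2% fell in WT, and 19.1% rose and 50.1% fell in Shank3. Fitted on rows with no gene on the other strand alone, 19 of 48 genes rose and 3 fell in WT, and 27 rose and 3 fell in Shank3.

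The opposite rows themselves could hold far more counts than the ribosomal protein gene. Of 20 such rows, 9 exceeded their ribosomal protein gene and 6 held more than 10000 counts. Tlcd1, opposite the 3′ end of Rpl23a, held 85745 counts against 2084 on Rpl23a. Wdr38 held 74551 against 688 on Rpl35, Sphk2 73836 against 4616 on Rpl18, and D730044K07Rik 48762 against 1772 on Rpl30. For Rpl15 the order was the reverse, with 42265 counts on Rpl15 and 19952 on Nkiras1, and for Rps25 likewise, with 24487 against 4724 on Ccdc84.

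At 4 h the rows of 2 of these pairs, Rpl23a with Tlcd1 and Rpl15 with Nkiras1, moved in opposite directions in both genotypes. Tlcd1 went from 2271 ± 452 CPM in WT naive cohort 2 (SD, n = 4) to 915.8 ± 129.9 CPM in WT 4 h (n = 5), a fall of 1.31 on the log2 scale (SE 0.23, adjusted p = 2.49e-05), while Rpl23a rose. In Shank3 Tlcd1 changed by -1.32 (SE 0.22, adjusted p = 7.07e-06). D730044K07Rik changed by -1.41 (adjusted p = 0.000113) in WT and -1.47 (adjusted p = 2.48e-05) in Shank3, while Rpl30 did not pass, at 0.52 (SE 0.25, adjusted p = 0.0789) and 0.51 (SE 0.25, adjusted p = 0.0696). Wdr38 changed by -1.80 (adjusted p = 1.09e-05) and -1.74 (adjusted p = 4.85e-06), while Rpl35 did not pass, at 0.76 (SE 0.43, adjusted p = 0.127) and 0.80 (SE 0.40, adjusted p = 0.0797). Nkiras1 rose by 0.72 in WT (adjusted p = 0.00802) and 0.68 in Shank3 (adjusted p = 0.00826), while Rpl15 fell. Sphk2 and Rpl18, in contrast, both fell. Of the 15 opposite rows tested, 1 rose and 5 fell in WT and 2 rose and 6 fell in Shank3. Whether the counts on these rows came from the gene they are named for was not tested.

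**Figure D5:**
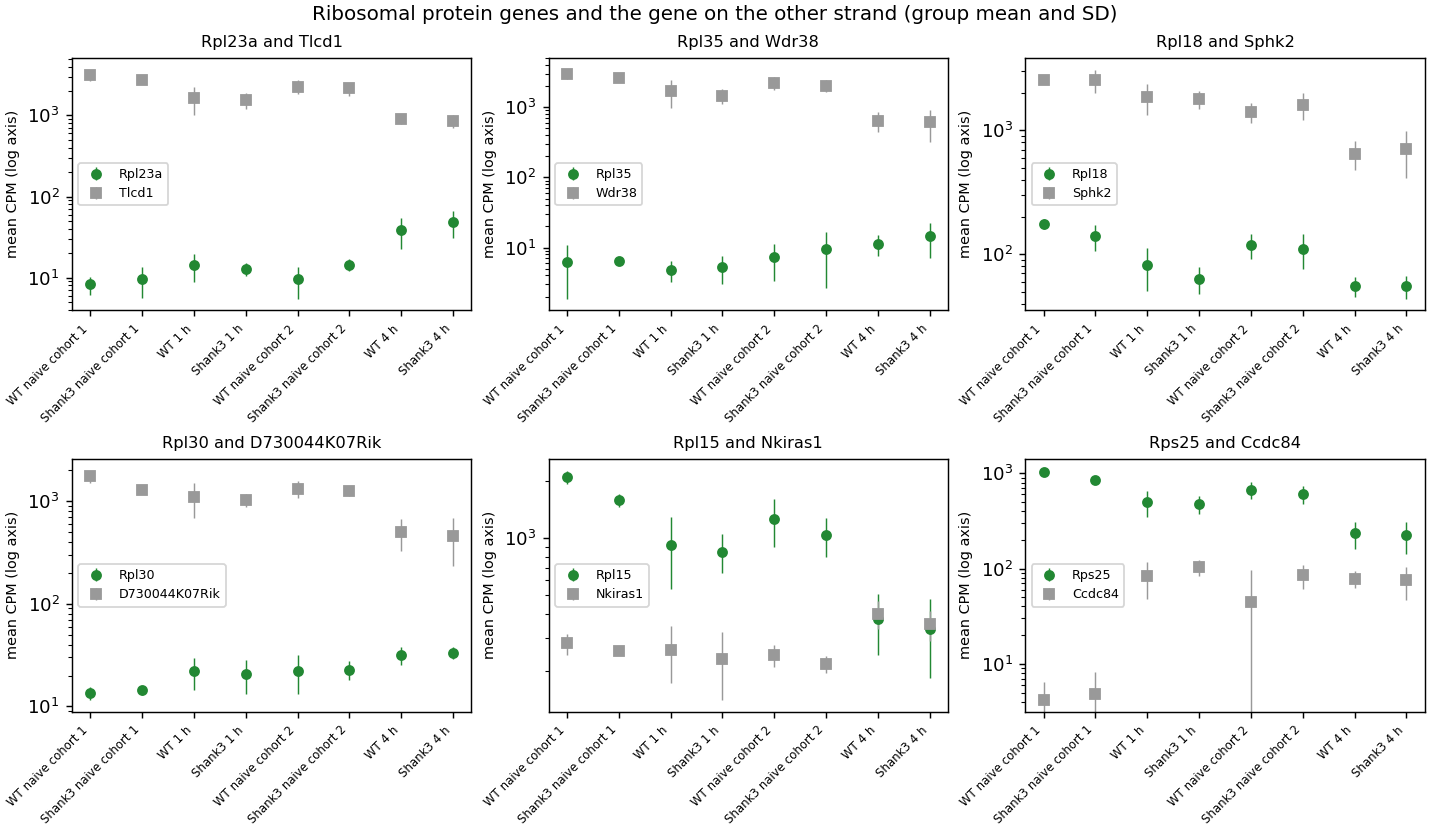
Group mean CPM with SD, on a log axis, of 6 ribosomal protein genes (green circles) and the row on the other strand (grey squares) over the 8 groups; bars that reach 0 or less end at the axis. In 4 of the 6 pairs the opposite row lies above the ribosomal protein gene in every group; Rps25 lies above Ccdc84 in every group, and the mean of Rpl15 lies above that of Nkiras1 in the naive and 1 h groups and below it at 4 h.

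Most of the 72 genes went together over libraries. Against the mean centred log2 CPM of the other tested genes over 36 libraries, 57 of 72 had a Pearson r above 0.5, 10 had an r below 0, and the median was 0.78. Rpl4 and Rpl7 were at 0.95 each, and Rpl15 (-0.97), Rps25 (-0.96), Rps28 (-0.93), Rps18 (-0.85), Rpl18 (-0.83) and Rpl11 (-0.74) went against the rest. The libraries share depth, pair share and scaling, so these values describe the libraries and carry no p. The genes outside the group most like its mean were Hpcal4 (r = 0.979), Mdh1 (0.973), Cfl1 (0.973), Mapk10 (0.972) and Uchl1 (0.972), all coding genes well expressed in neurons.

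At 1 h after the swim fewer ribosomal protein genes changed. In WT mice 21 of 72 rose and 4 fell, where 16.9% of all tested genes rose and 17.3% fell, and the median log2 fold change was 0.86 against 0.24 over all genes. With the 1 gene whose naive libraries held no count, Rps27, at its lower bound of 3 counts over the group, the median was 0.84. Of the 21 genes, 15 also rose at 4 h in WT, where 38 of all 72 rose. The 4 h contrast used other libraries but the same fit and scaling. The share over all tested genes that rose at both times was not counted. Every WT 1 h library lay above every WT naive library of cohort 1 for 12 of the 72 genes, against 1205 of all 11341. The 4 with the smallest p were Rps14, Rpl3, Rps3 and Rps6. Rps14 was at 32.9, 39.1 and 34.5 CPM in WT naive cohort 1 and 64.2 to 137, with a median of 90.8 CPM in WT 1 h, without overlap (1.44 (SE 0.27, adjusted p = 0.00062)). Rpl3, a protein that reaches the peptidyl transferase centre, was at 38.0, 71.3 and 48.7 CPM in WT naive cohort 1 and 76.8 to 126, with a median of 114 CPM in WT 1 h, also without overlap (1.01 (SE 0.23, adjusted p = 0.002)). Rps3, at the mRNA entry channel, changed by 1.44 (SE 0.34, adjusted p = 0.00261). Rps6 was at 24.2, 26.5 and 17.3 CPM in WT naive cohort 1 and 31.5 to 73.7, with a median of 55.5 CPM in WT 1 h, and changed by 1.34 (SE 0.32, adjusted p = 0.0029).

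Among the genes chosen by role at 1 h in WT, Rpl10 rose by 1.67 (SE 0.48, adjusted p = 0.0086) and Rps4x by 1.32 (SE 0.39, adjusted p = 0.0104), both calls lost without WT naive replicate 3 (adjusted p = 0.0831 and 0.0781). Rpl22 was at 3.46, 6.90 and 1.57 CPM in WT naive cohort 1 and 4.44 to 10.4, with a median of 9.69 CPM in WT 1 h, and did not pass at 0.98 (SE 0.54, adjusted p = 0.146). Rpsa was at 0.94 (SE 0.65, adjusted p = 0.255), Rps27a at 0.55 (SE 0.24, adjusted p = 0.0709), Rplp0 at -0.13 (SE 0.81, adjusted p = 0.916) and Rplp1 at -0.46 (SE 1.12, adjusted p = 0.765). The 4 genes that fell were Rpl15, Rpl18, Rps25 and Rps28. Rpl15 was at 2031, 1948 and 2274 CPM in WT naive cohort 1 and 597 to 1595, with a median of 812 CPM in WT 1 h (-1.19 (SE 0.30, adjusted p = 0.00391)). Rpl18 changed by -1.12 (SE 0.24, adjusted p = 0.00163), Rps25 by -1.03 (SE 0.26, adjusted p = 0.00392) and Rps28 by -0.95 (SE 0.26, adjusted p = 0.00683), the last lost without WT naive replicate 3 (adjusted p = 0.0561). Rpl11, which fell at 4 h, was at 0.14 (SE 0.24, adjusted p = 0.662). The total of 25 calls was 13 when WT naive replicate 1 was left out, 13 when WT naive replicate 3 was, and 15 with the pair share as a covariate. With library totals in place of TMM, 35 rose and 3 fell, while the median of all genes shifted to 0.85.

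In Shank3 mice at 1 h 3 of 72 genes rose and 3 fell, where 4.99% of all genes rose and 7.25% fell, so the share of these genes called was close to that of all genes. At an unadjusted p under 0.05 there were 18 of 72, against 3560 of all 11341 genes. Every Shank3 1 h library lay above every Shank3 naive library of cohort 1 for 11 of 72, against 1411 of all 11341. The median log2 fold change was 0.44 against 0.09 over all genes, and 0.41 with Rps29, absent from the naive libraries, at its lower bound. Rps23, a protein of the decoding centre, was at 22.2, 26.7 and 17.7 CPM in Shank3 naive cohort 1 and 37.4, 40.4, 46.4, 41.0 and 46.6 CPM in Shank3 1 h, without overlap, and rose by 0.93 (SE 0.25, adjusted p = 0.021). Rpl3 rose by 0.70 (SE 0.22, adjusted p = 0.0374) and Rpl14 by 1.15 (SE 0.38, adjusted p = 0.0411). Rpl18 was at 126, 177 and 115 CPM in Shank3 naive cohort 1 and 87.9, 70.5, 51.0, 51.4 and 56.9 CPM in Shank3 1 h, and fell (-1.13 (SE 0.25, adjusted p = 0.00792)). Rps25 changed by -0.85 (SE 0.27, adjusted p = 0.0367) and Rps28 by -0.82 (SE 0.27, adjusted p = 0.0413). All 6 genes were also called in WT, in the same direction. Leaving out Shank3 naive replicate 2 gave 0 calls, replicate 3 of either Shank3 group 1 call, Shank3 1 h replicate 4 2 calls and Shank3 1 h replicate 5 3 calls. With library totals in place of TMM, 9 rose and 1 fell, while the median of all genes shifted to 0.57. Of the genes chosen by role, Rpl22 was at -0.31 (SE 0.43, adjusted p = 0.654), Rps6 at 0.19 (SE 0.29, adjusted p = 0.668), Rpl10 at 0.91 (SE 0.42, adjusted p = 0.133) and Rps14 at 0.62 (SE 0.26, adjusted p = 0.0944).

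No ribosomal protein gene passed the test of a difference between the genotypes at any time. In naive mice 0 of 72 genes passed and 1 had an unadjusted p under 0.05, where 0.00882% of all tested genes passed (edgeR). At 1 h 0 passed and 0 had an unadjusted p under 0.05, where 0% of all genes passed. At 4 h 0 passed and 0 had an unadjusted p under 0.05, where 0.00882% of all genes passed. DESeq2 also called 0 of them at each time. The median log2 difference, Shank3 over WT, was 0.07 without swim, -0.17 after 1 h and 0.16 after 4 h, and 46, 15 and 57 of the 72 genes were above 0. Over all genes the medians were 0.03, -0.02 and 0.00, and 6097, 5207 and 5760 of 11341 genes were above 0. The 72 genes were measured in the same libraries, so the counts above 0 are no test of a genotype difference. Among the genes with the smallest p were Rps23 at 0.40 (SE 0.20, adjusted p = 1) and Rpl34 at 1.49 (SE 0.80, adjusted p = 1) in naive mice. At 1 h they included Rpl27a at -0.45 (SE 0.23, adjusted p = 1), Rps21 at -1.08 (SE 0.60, adjusted p = 1) and Rps7 at -0.44 (SE 0.25, adjusted p = 1). At 4 h they included Rps19 at 0.63 (SE 0.37, adjusted p = 1) and Rpl3 at 0.28 (SE 0.17, adjusted p = 1).

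For the tagged Rpl22 the Shank3 over WT difference stood at 0.60 (SE 0.38, adjusted p = 1) without swim, -0.21 (SE 0.33, adjusted p = 1) after 1 h and 0.24 (SE 0.25, adjusted p = 1) after 4 h. In naive cohort 1 its CPM was 3.46, 6.90 and 1.57 in WT and 9.10, 9.30 and 8.86 in Shank3, and in cohort 2 the groups overlapped. Rps6 was at 24.2, 26.5 and 17.3 CPM in WT and 48.5, 33.7 and 41.8 CPM in Shank3 in naive cohort 1. Those groups did not overlap, while those of cohort 2 did. The share of all tested genes that separate in this way was not counted. Neither Rpl22 nor Rps6 passed the genotype test in naive mice, so the separation shows no genotype difference.

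The size of the swim response did not pass a test of difference between genotypes for any ribosomal protein gene. At 1 h 0 of 72 interaction terms passed, where 0% of all genes did, and 3 had an unadjusted p under 0.05, those of Rps6, Rps14 and Rps27. For Rps6 the Shank3 response less the WT response was -1.14 (SE 0.43, adjusted p = 1). Rps27, with 0 counts in WT naive cohort 1, 14 in WT 1 h, and 4 in each of Shank3 naive cohort 1 and Shank3 1 h, is given without a fold. At 4 h 0 of 72 passed, where 0% of all genes did, and 0 had an unadjusted p under 0.05. The smallest p were those of Rpl10a at 1.26 (SE 0.69, adjusted p = 1), Rpl23 at 0.43 (SE 0.24, adjusted p = 1) and Rpl37 at 1.16 (SE 0.68, adjusted p = 1). The median difference of response was -0.23 at 1 h and 0.10 at 4 h, against -0.06 and -0.02 over all genes, and DESeq2 called 0 at both times.

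More genes passed the test between the naive libraries of the 2 cohorts than between those of the 2 genotypes. In cohort 2 9 of 72 genes were higher and 2 lower than in cohort 1, where 5.78% and 4.88% of all genes were, with a median log2 difference of 0.42 against 0.09. The higher ones with the smallest p were Rps23 at 1.00 (SE 0.20, adjusted p = 0.00254), Rps14 at 0.82 (SE 0.20, adjusted p = 0.0119), Rpl21 at 0.71 (SE 0.20, adjusted p = 0.0239) and Rps24 at 0.86 (SE 0.24, adjusted p = 0.0262). Rps18 at -0.48 (SE 0.13, adjusted p = 0.023) and Rps28 at -0.62 (SE 0.20, adjusted p = 0.0444) were lower. Rps23 in WT was at 13.8, 20.7 and 14.1 CPM in naive cohort 1 and 17.3, 34.2, 38.1 and 43.9 CPM in naive cohort 2. The pair share was also higher in naive cohort 2, at 13.2% against 10.8% in WT and 13.1% against 11.3% in Shank3. The count of 11 rested on few libraries: it was 1 without Shank3 naive replicate 2, 2 without Shank3 naive replicate 5 or WT naive replicate 3 or 7, 4 without Shank3 naive replicate 3, 5 without WT naive replicate 1 or 6, and 6 without Shank3 naive replicate 6. It was 18 without Shank3 naive replicate 4 and 20 without WT naive replicate 4.

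Proteins of the ribosome whose symbols fall outside the naming rule were 13 genes, of which 6 were tested, and 3 rose at 4 h in each genotype. Of all tested genes 29% rose at 4 h in WT and 32.7% in Shank3. Rack1, a scaffold protein of the small subunit, had the largest rise, by 3.13 in WT (SE 0.53, adjusted p = 1.7e-05) and 3.87 in Shank3 (SE 0.56, adjusted p = 1.86e-06). Rps3a1 rose by 1.01 (adjusted p = 0.00271) and 1.14 (adjusted p = 0.000525). Fau, the fusion precursor of a small subunit protein, did not pass, at 0.43 and 0.58.

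Other gene lists of the translation system were chosen with results of these data known, and their counts describe the libraries. They are to be read against all tested genes, of which 29% rose and 26.9% fell in WT at 4 h. In Shank3 these shares were 32.7% and 29.4%. Of 21 tested mRNAs with a TOP tract outside the ribosome, 11 rose and 3 fell in WT at 4 h and 11 rose and 4 fell in Shank3. Eef2, the translocation factor, rose by 1.95 in WT (SE 0.33, adjusted p = 1.6e-05) and 2.11 in Shank3 (SE 0.33, adjusted p = 3.42e-06), while Naca fell by 1.00 in WT (SE 0.18, adjusted p = 2.22e-05). Of 24 regulators of mTORC1 and TOP mRNAs, 10 rose and 3 fell in WT and 14 rose and 4 fell in Shank3. Sesn3, a sestrin that restrains mTORC1, rose by 1.34 and 1.51, and Rps6kb2, a kinase of Rps6, fell by 1.41 in Shank3 (SE 0.24, adjusted p = 9.91e-06). Of 45 ribosome assembly genes, 15 rose and 8 fell in WT and 10 rose and 6 fell in Shank3. Ncl, the nucleolar protein nucleolin, fell by 0.99 in WT and 1.15 in Shank3. Of 15 genes of ribosome quality control, 8 rose and 0 fell in WT and 7 rose and 1 fell in Shank3, led by Rnf10, a ubiquitin ligase that modifies Rps2 and Rps3, at 1.30 and 1.46.

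Lists outside cytosolic translation also held called genes. For comparison, 29% of all tested genes rose and 26.9% fell in WT at 4 h, and 32.7% and 29.4% in Shank3. At 4 h 51 of 83 nuclear oxidative phosphorylation genes rose and 3 fell in WT, and 58 rose and 4 fell in Shank3, with medians of 0.99 and 1.13. Of 35 proteasome genes, 20 rose and 2 fell in WT and 22 rose and 2 fell in Shank3. Of 70 mitochondrial ribosomal protein genes, 18 rose and 10 fell in WT and 30 rose and 8 fell in Shank3. At 1 h the oxidative phosphorylation list had 34 risen and 2 fallen genes in WT and 3 and 1 in Shank3. Of all tested genes 16.9% rose and 17.3% fell at 1 h in WT, and 4.99% and 7.25% in Shank3. No gene of these lists passed the test of a genotype difference or of a difference in response.

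Markers of cell types moved with the 4 h groups as well. Of all tested genes 29% rose and 26.9% fell at 4 h in WT, and 32.7% and 29.4% in Shank3. The summed level of the 12 pyramidal neuron markers was 1477 to 2108 CPM in WT naive cohort 2 and 2329 to 3967 CPM in WT 4 h, and 5 of the 12 rose and 2 fell. The 10 astrocyte markers, 5 of them tested, summed to 50.8 to 110.6 CPM in WT naive cohort 2 and 105.7 to 145 CPM in WT 4 h, and 3 rose. In Shank3 they summed to 54.3 to 77.3 CPM and 102 to 139 CPM. The 10 oligodendrocyte markers, 4 of them tested, summed to 85.4 to 92.7 CPM in WT naive cohort 2 and 118 to 274.5 CPM in WT 4 h, and to 71.6 to 124 CPM and 126 to 327 CPM in Shank3, and 3 rose in WT and 2 in Shank3, while Mag and Opalin were at 0 in both naive groups of cohort 2. The 10 microglia markers, 2 of them tested, summed to 584 to 885 CPM in WT naive cohort 2 and 176 to 398 CPM in WT 4 h. In Shank3 they summed to 567 to 816 CPM and 172 to 377 CPM, and 1 of the 2 fell in each genotype. P2ry12, C1qb and C1qc were at 0 in both naive groups of cohort 2. The sum therefore rests on other rows and does not show how much RNA of microglia was present. The 10 interneuron markers, 4 of them tested, summed to 54.4 to 82.9 CPM in WT naive cohort 2 and 32.7 to 55.4 CPM in WT 4 h, and to 44.4 to 80.6 CPM and 42.7 to 76.4 CPM in Shank3, and 1 fell in each genotype. Of 8 oligodendrocyte precursor markers the 1 tested fell in both genotypes, of 10 endothelial and mural markers the 1 tested rose in both, and none of 5 blood markers was tested. The part of these cell types in the changes of the ribosomal protein genes was not tested.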

How the data were processed

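RiboTag RNA of 36 mouse cortex libraries was sequenced after a stranded mRNA kit, per the labels' protocols. The authors deposited 1 table of raw counts per library, with 55470 Ensembl gene rows. The submitters' processing notes name Trimmomatic 0.39, FastQC, HISAT2 2.2.0, StringTie 2.1.3, Salmon 1.4, DESeq2 and mm10 without saying which made the counts, and the strand setting is not given in the sources used here. Symbols came from the supplied gene name table (55143 rows matched) and exons from GENCODE M21 (55229 rows matched). Rows without a symbol held 0.0387% of counts and were kept.

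The model was edgeR's (4.0.16, under R 4.3.3) with a filterByExpr filter on the 8 combinations of group and cohort, TMM, robust quasi-likelihood test, 28 residual degrees of freedom, Benjamini-Hochberg threshold 0.05. All 36 libraries entered 1 fit, so the groups share their estimate of spread (common biological coefficient of variation 24.15%), and swim groups were contrasted with the naive libraries of their own cohort. Each SE was taken from the fold change and its F statistic (absolute log2 value over root F). Fitted fold changes of genes with few counts depend on edgeR's prior count. The fit was tested on simulated counts. Tables were made with Python 3.11.15, pandas 2.3.3 and scipy 1.17.1, and figures with matplotlib 3.10.9.

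Alternatives were DESeq2 1.42.0, library totals in place of TMM, no filter, only the groups compared, an additive cohort term, the pair share as a covariate, rows with no gene on the other strand, a replicate block, leaving out each library, and, chosen after seeing the data, leaving out the 3 libraries rich in ribosomal RNA (10% of counts or more on 1 row). The genes, lists and tests were chosen with earlier results of these data known. Genes were named by role (Rpl22 and Rpl22l1, the stalk, Rpsa, Rps6, Rps14, Rps27a, Rpl10, Rps4x), by the smallest p in each comparison (up to 4 rising and 4 falling, or 3 where none passed), by level per kb (3 highest and 3 lowest), by the 5 largest and 5 smallest mean responses at 4 h, and, for other lists, by the 2 smallest p. Rpl4, Rpl30, Rpl35 and the Rps18, Rpl35a and Rps15a calls were named after their values were seen. A few genes that this rule names are not reported here, and protein sequences were not used.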

Additional observations from a re-analysis of the deposited data

Results flagged for a closer look

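In groups of 4 to 10 libraries, 66 checks on the genes chosen by role looked for a library separated from the rest of its group, and 9 met that mark. About 1 in 20 such checks does so by chance.

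WT 4 h replicate 5 stood above the other 4 libraries of its group for 4 genes: Rplp0 was at 20.36 CPM against 6.55 to 8.01, Rplp1 at 23.87 CPM, Rpsa at 43.23 CPM and Rps4x at 82.95 CPM. This library had the highest pair share of the WT 4 h group, 31.7%, and its part in these values was not tested.

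In naive cohort 2, WT replicate 7 was high for Rpsa at 11.96 CPM and for Rps4x at 49.83 CPM. Among the Shank3 naive libraries of that cohort, replicate 5 was high for Rpsa at 14.06 CPM, and replicate 4 was low for the tagged Rpl22 at 1.325 CPM against 9.5 to 10.8 CPM in the others. Shank3 4 h replicate 4 was high for Rps27a at 58.73 CPM.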

How the results depend on the processing

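Calls are counts of ribosomal protein genes past the threshold in either direction; for genotype and interaction they were 0 under every setting run. For Shank3 at 1 h (6 calls) there were 10 with DESeq2, 17 with an additive cohort term, 10 with library totals, 16 with only the groups compared and 1 of 48 genes on rows with no gene on the other strand. For WT at 1 h (25) there were 38 with library totals, 15 with the pair share and 8 on such rows. For WT at 4 h (46) there were 2 with the pair share and 22 on such rows, and for Shank3 at 4 h (53) 0 and 30. For the naive cohorts (11) there were 19 with DESeq2, 21 with library totals, 25 with only the groups compared and 1 on such rows. The cause of these changes was not tested. Without any 1 library the counts ran from 34 to 51 (WT 4 h), 46 to 58 (Shank3 4 h), 13 to 31 (WT 1 h), 0 to 8 (Shank3 1 h) and 1 to 20 (cohorts), and of 95 named calls 57 were kept in all such fits.

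Same-numbered libraries of the 2 genotypes were not shown to pair. Their deviations correlated from -0.25 to 0.73, with 5 of 17 above 0.1 and 5 of 17 highest with their own number. The largest values, 0.69 and 0.73, were those of 4 h replicates 2 and 5, and 17 pairs cannot exclude a pairing. With the replicate block there were 2 calls for Shank3 at 1 h and 0 for the naive cohorts, with 22, 38 and 52 for WT at 1 h, WT at 4 h and Shank3 at 4 h.

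With the pair share, whose values do not overlap between naive and 4 h libraries, as a covariate the 4 h log2 fold change turned to -0.21 (Rpl10), -0.30 (Rpl22), -0.19 (Rplp0), 0.0602 (Rps18), -0.16 (Rps21), -0.0229 (Rps27) and -0.21 (Rpsa) in Shank3, and to -0.0236 (Rpl10), -0.37 (Rpl6), -1.02 (Rplp1) and -0.28 (Rps19) in WT. With library totals Rpl18 (0.0284) and Rps18 (0.60) in Shank3 and Rpl23 (0.15) in WT turned positive. Without the 3 libraries rich in ribosomal RNA, 37 rose and 7 fell in WT at 4 h and 38 rose and 5 fell in Shank3. Depth limits the genes at a few CPM, where 1 count is a large part of a level.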
